A study of Homo sapiens with 12 samples.

Results

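The genes described here are 9 oncofetal genes, chosen by name: the mRNA-binding proteins IGF2BP1, IGF2BP2 and IGF2BP3, the RNA-binding proteins LIN28A and LIN28B, the chromatin proteins HMGA1 and HMGA2, the growth factor IGF2 and the noncoding RNA H19. Of these 9 genes, 7 had values among the 22784 symbols measured and 6 of those passed the filter on low values, which 14839 symbols passed. LIN28A had values but did not pass it, and LIN28B and H19 had no values here. The cells were SK-UT-1, an established human line of uterine leiomyosarcoma, a malignant tumour of the uterine smooth muscle. They received vehicle (VEH, which was DMSO), 5 µM JQ1 or 5 µM I-BET 762 for 48 h, and their total RNA was sequenced in strand-specific libraries. Both compounds block the bromodomains with which BET proteins read acetylated histones. JQ1 has a thieno-fused and I-BET 762 a benzo-fused triazolodiazepine core. The labels list 12 libraries, 4 per group, and the values cover 10 of them: VEH replicates 13, 14 and 15, JQ1 replicates 17, 18, 19 and 20, and I-BET 762 replicates 21, 22 and 23. All came from 1 cell line at 1 dose and 1 time, and nothing states that replicates were separate cultures, so p-values measure the spread between these libraries, which may be technical. JQ1 replicate 18 stood apart: the chi-square between its reads and those of the other JQ1 libraries was 19.9 to 21.3 per gene, against 2.75 to 14.8 for the other pairs within groups. Without it, the same number of the genes below was called in each comparison, and the log2 fold changes with JQ1 were -1.43 for IGF2BP1 and 1.78 for HMGA1.

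IGF2BP1, IGF2BP2 and IGF2BP3 bind mRNAs, in part at N6-methyladenosine (m6A), and protect them from decay. HMGA1 and HMGA2 bend AT-rich DNA through their AT-hooks. Most of these genes are active in the embryo, silent or low in adult tissue and active again in tumours. The let-7 microRNAs repress several of them in differentiated cells, LIN28A and LIN28B block the maturation of let-7, and IGF2 and H19 are neighbouring imprinted genes.

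The let-7 sequences are shown because they are the regulators that several of these genes share. The 9 let-7 family members in RefSeq (GRCh38.p14) carry 1 seed, GAGGUAG, at bases 2 to 8. Below, the seed is in capitals. The genes used for hsa-let-7a-5p, hsa-let-7d-5p and hsa-let-7f-5p (MIRLET7A1, MIRLET7D and MIRLET7F1) lie in a cluster on chromosome 9. The gene of hsa-let-7c-5p lies in an intron of MIR99AHG.
hsa-let-7a-5p: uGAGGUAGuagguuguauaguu
hsa-let-7c-5p: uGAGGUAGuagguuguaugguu
hsa-let-7d-5p: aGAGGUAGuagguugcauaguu
hsa-let-7f-5p: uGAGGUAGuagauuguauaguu

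The DNA letters CTACCTC, the complement of that seed, were searched on the sense strand of the annotated 3′ UTR of each canonical transcript. They occurred in 9.70% of 19205 3′ UTRs, and in 22.9% of those of 2500 bases or more. IGF2BP1 held 4 matches in 6701 bases of 3′ UTR and HMGA2 held 4 in 2999 bases. LIN28B, without values here, held 4 in 4549 bases. Only 12 of the 19205 3′ UTRs held 4 or more. HMGA1, IGF2BP2, IGF2BP3 and LIN28A held 1 match each, and IGF2 held 0 in 3870 bases. A match is a run of letters and not a measured site, and microRNAs were not measured in these libraries. The matches of IGF2BP1, HMGA1 and HMGA2 are given below, read 5′ to 3′ from hg38 with the match in capitals.
IGF2BP1 match 1, chr17:49051061-49051083, + strand: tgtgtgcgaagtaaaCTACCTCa
IGF2BP1 match 2, chr17:49053698-49053720, + strand: cagcagtgctagtaaCTACCTCa
IGF2BP1 match 3, chr17:49054352-49054374, + strand: gtataaatggattaaCTACCTCa
IGF2BP1 match 4, chr17:49054997-49055019, + strand: tcacttttgttttatCTACCTCt
HMGA1 match 1, chr6:34245829-34245851, + strand: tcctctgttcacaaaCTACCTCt
HMGA2 match 1, chr12:65963298-65963320, + strand: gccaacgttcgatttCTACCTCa
HMGA2 match 2, chr12:65964533-65964555, + strand: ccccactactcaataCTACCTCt
HMGA2 match 3, chr12:65964945-65964967, + strand: ttgacttgcaaagacCTACCTCc
HMGA2 match 4, chr12:65965798-65965820, + strand: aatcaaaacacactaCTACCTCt

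**Figure D1:**
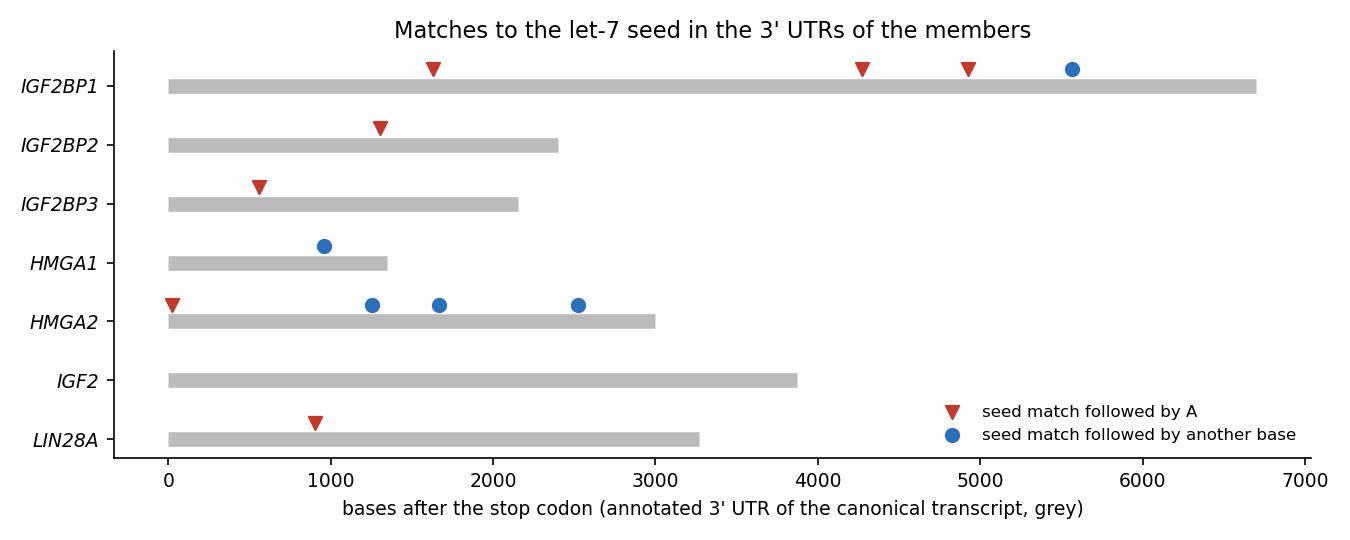
Position of each match to the let-7 seed in the 3′ UTRs (grey bars, x axis in bases after the stop codon) of the 7 genes with values; triangles mark matches followed by A and circles those followed by another base. IGF2BP1 and HMGA2 each hold 4 matches, the first of HMGA2 lying 21 bases after the stop codon, and IGF2 holds 0.

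A gene was called when its adjusted p from limma, over all 14839 symbols tested, was under 0.05 and its fold change over 1.5. With JQ1, 2 of the 6 tested genes were called: IGF2BP1 fell and HMGA1 rose. Of all symbols tested, 36.1% were called with JQ1, 13.3% higher and 22.8% lower. With I-BET 762, 3 of the 6 were called: IGF2BP1 and IGF2 fell and HMGA1 rose, where 26.9% of all symbols tested were called, 8.96% higher and 17.9% lower. By adjusted p alone, 5 of the 6 passed with JQ1 and all 6 with I-BET 762, where 71.7% and 61.1% of all symbols passed. The libraries of the 2 groups did not overlap for 5 of the 6 with JQ1 and for 6 with I-BET 762, against 68.4% and 71.0% of all symbols. Both inhibitors are compared with the same 3 VEH libraries. All values below are DESeq2-normalized counts unless another scale is named.

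**Figure D2:**
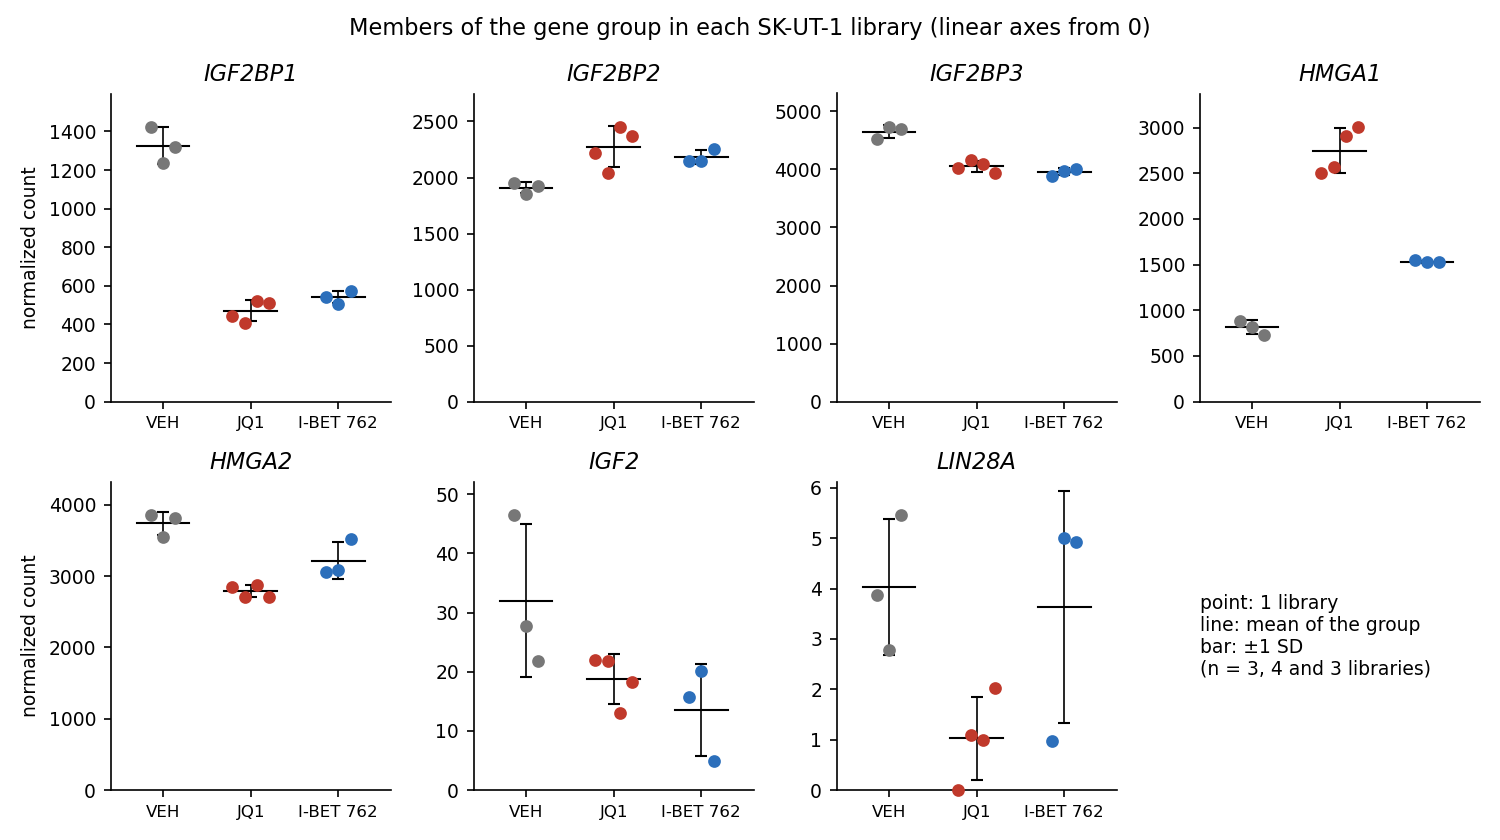
Normalized count (y axis, linear, from 0) of the 7 genes with values in every library, with the mean (line) and SD (bar) of 3 VEH, 4 JQ1 and 3 I-BET 762 libraries. IGF2BP1 is lower and HMGA1 higher in every treated library than in any VEH library, and LIN28A stays at 6 reads or fewer.

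IGF2BP1 (ENSG00000159217.10, chr17:48997385-49056145, + strand, hg38, Gencode V44), whose product stabilises mRNAs such as MYC, was the gene that fell most with JQ1 among the 6. Its normalized count was 1426, 1234 and 1320 in VEH replicates 13, 14 and 15. It was 442, 408, 522 and 513 in JQ1 replicates 17 to 20. It was 544, 508 and 574 in I-BET 762 replicates 21 to 23. Every treated library lay below every VEH library, and the ranges of the JQ1 and the I-BET 762 libraries overlapped. The log2 fold change was -1.50 (SE 0.09, limma adjusted p = 4.15e-10) with JQ1 and -1.29 (SE 0.09, adjusted p = 1.26e-08) with I-BET 762. These are levels 2.82-fold (95% interval 2.47 to 3.22) and 2.44-fold (2.12 to 2.81) lower than in VEH. No 75-base stretch of its transcript, sampled in 118 windows, had an exact copy elsewhere in the genome, and 3 windows had a copy with at most 3 mismatches. Such near copies were found for 20 of 60 windows of IGF2BP2 (3 exact), 33 of 100 of IGF2BP3 (1 exact), 3 of 196 of HMGA2 (0 exact), 25 of 51 of LIN28A (4 exact) and 0 of 91 of IGF2.

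IGF2BP2 and IGF2BP3, its paralogues, changed by less than 1.5-fold and in opposite directions. IGF2BP2 (ENSG00000073792.16, chr3:185643130-185825042, − strand), the family member that stays active in adult tissue, was at 1947, 1854 and 1927 in VEH. It was at 2223, 2041, 2455 and 2374 with JQ1, and at 2150, 2143 and 2257 with I-BET 762. All treated libraries were above all VEH libraries, by a log2 fold change of 0.25 (SE 0.06, limma adjusted p = 0.00153) with JQ1 and 0.19 (SE 0.06, adjusted p = 0.0158) with I-BET 762. With libraries rescaled to equal totals, the difference was 0.06 with JQ1 (adjusted p = 0.44) and 0.10 with I-BET 762 (adjusted p = 0.287), neither past the test. With I-BET 762 it also failed with equal upper quartiles (adjusted p = 0.056), without VEH replicate 14 (0.0612) and without I-BET 762 replicate 23 (0.0669). The rescaling to equal totals put the median log2 fold change of all symbols tested at -0.18 for JQ1 and -0.10 for I-BET 762, where it had been 0.01 or nearer to 0.

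IGF2BP3 (ENSG00000136231.14, chr7:23310209-23470491, − strand), a mainly fetal paralogue found in many carcinomas and sarcomas, was at 4525, 4737 and 4687 in VEH. It was at 4021, 4164, 4087 and 3934 with JQ1, and at 3887, 3978 and 4002 with I-BET 762. All treated libraries were below all VEH libraries. The log2 fold change was -0.20 (SE 0.04, limma adjusted p = 0.000548) with JQ1 and -0.23 (SE 0.05, adjusted p = 0.000339) with I-BET 762, and it stayed negative under both rescalings tried. Of its exonic bases, 17.8% overlap exons of MALSU1 on the opposite strand. The strand setting of the counting is not given in the sources used here. MALSU1 itself had a log2 fold change of 0.07 with JQ1 (adjusted p = 0.351) and -0.09 with I-BET 762 (adjusted p = 0.283).

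Levels of different genes were compared per kb of annotated exon. In VEH, IGF2BP1 made up 13.2% ± 0.89 (SD, n = 3) of the summed level of the 3 paralogues, IGF2BP2 34.4% ± 0.64 and IGF2BP3 52.4% ± 1.51. With JQ1, the share of IGF2BP1 was 5.14% ± 0.44 (n = 4) and that of IGF2BP2 44.8% ± 2.10. With I-BET 762, they were 6.05% ± 0.28 and 44.1% ± 0.41 (n = 3). IGF2BP1 was thus the scarcest paralogue in every group, and its share did not overlap between treated and VEH libraries. Dividing by the length of the canonical transcript instead, a choice made after seeing the data, gave 8.96%, 3.49% and 4.12% for IGF2BP1.

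**Figure D3:**
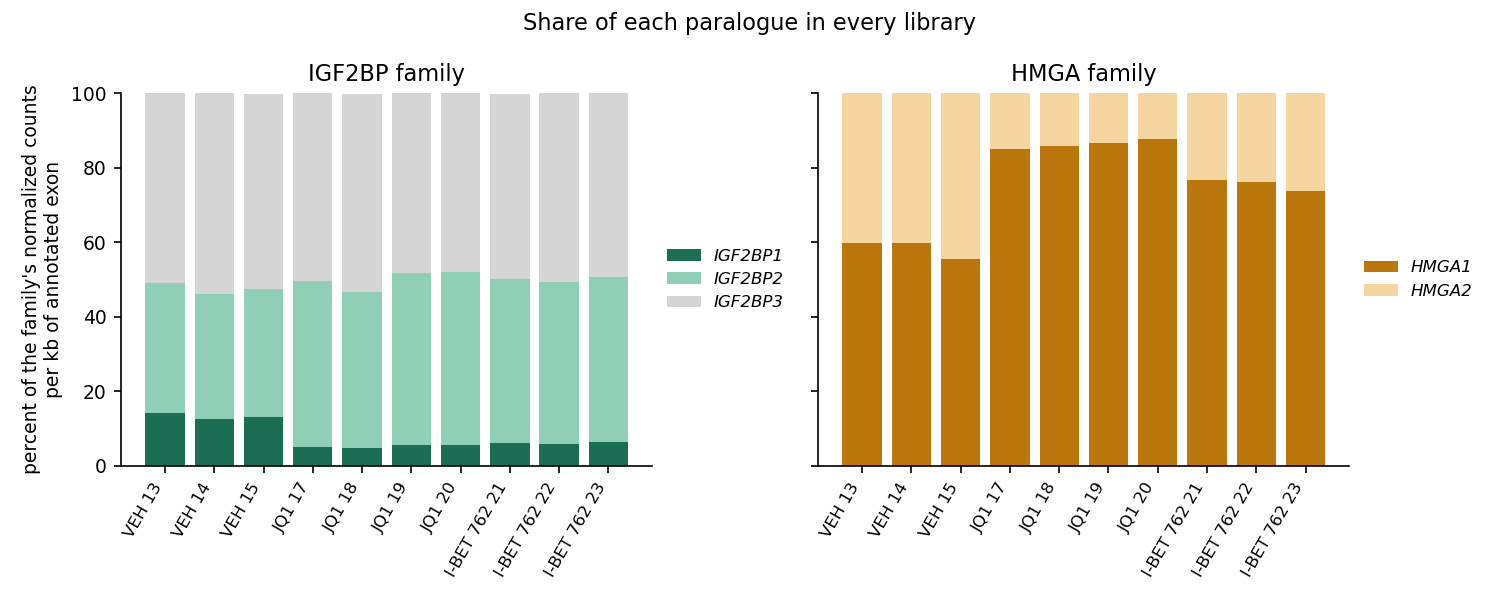
Share (y axis, percent) of each paralogue in the summed normalized count per kb of annotated exon, in each of the 10 libraries (x axis), for the IGF2BP family and the HMGA family. The IGF2BP1 segment shrinks from 12.4% to 14.2% in VEH to at most 6.26% in treated libraries, and the HMGA1 segment grows from at most 59.9% to at least 73.8%.

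HMGA1 (ENSG00000137309.21, chr6:34236873-34246231, + strand) rose with both inhibitors and rose more with JQ1. It was at 888, 819 and 735 in VEH replicates 13, 14 and 15. It was at 2504, 2570, 2903 and 3012 with JQ1, and at 1546, 1524 and 1529 with I-BET 762. The 3 groups did not overlap. The log2 fold change was 1.75 (SE 0.07, limma adjusted p = 6.53e-12) with JQ1 and 0.92 (SE 0.08, adjusted p = 6.56e-08) with I-BET 762, or 3.37-fold (95% interval 3.03 to 3.75) and 1.89-fold (1.68 to 2.12). Of 28 windows of 75 bases across its exons, 1 had an exact copy elsewhere in the genome and 19 had a copy with at most 3 mismatches, among them copies in 5 HMGA1 pseudogenes. How much of its count came from such copies was not tested.

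The HMGA1 promoter is shown because the gene rose with both compounds. RefSeq promoters (GRCh38.p14) of HMGA1, IGF2BP2 and IGF2BP3 were used, and those of IGF2BP1, LIN28A, HMGA2 and IGF2 were not analysed here. The 250 bases before the HMGA1 start, chr6:34236623-34236872 on the + strand, follow with GC boxes (GGGCGG, either strand) in capitals.
HMGA1 promoter: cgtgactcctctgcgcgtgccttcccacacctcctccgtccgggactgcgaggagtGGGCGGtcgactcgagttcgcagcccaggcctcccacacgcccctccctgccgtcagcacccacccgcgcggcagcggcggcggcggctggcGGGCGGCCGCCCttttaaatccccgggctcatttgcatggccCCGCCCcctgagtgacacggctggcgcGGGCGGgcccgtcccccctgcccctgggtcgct

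It held 5 GC boxes, of which the second and the third adjoin, and 30 CpG, with a GC content of 74.8%. At least 1 GC box was in 42.3% of 27305 RefSeq promoters, whose median GC content was 58%. The E-box letters CACGTG, which are read the same on both strands and which MYC and MAX can bind, were not in this window and were in 6.49% of all promoters. IGF2BP2 held 7 GC boxes and no E-box, and IGF2BP3 held 2 E-boxes and no GC box. TATAAA, in 11.1% of promoters, and CCAAT, in 33.0%, were in none of the 3, both strands searched.

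HMGA2 (ENSG00000149948.14, chr12:65824460-65966291, + strand), the paralogue rearranged in a subset of benign smooth muscle tumours of the uterus, went the other way from HMGA1 by under 1.5-fold. It was at 3855, 3548 and 3811 in VEH. It was at 2847, 2711, 2874 and 2712 with JQ1, and at 3051, 3078 and 3521 with I-BET 762. All treated libraries were below all VEH libraries, I-BET 762 replicate 23 only just. The log2 fold change was -0.42 (SE 0.06, limma adjusted p = 5.03e-06) with JQ1 and -0.22 (SE 0.06, adjusted p = 0.00508) with I-BET 762. With libraries rescaled to equal totals, the change with JQ1 was -0.61 and passed the fold threshold (adjusted p = 9.15e-07).

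Per kb of annotated exon, HMGA1 was 58.5% ± 2.51 (SD, n = 3) of the summed HMGA level in VEH, 86.4% ± 1.16 (n = 4) with JQ1 and 75.5% ± 1.56 (n = 3) with I-BET 762. The shares of the 3 groups did not overlap. Which paralogue was the higher one in VEH depended on the length used, since HMGA2 has 15.1 kb of annotated exon and a canonical transcript of 4.12 kb. Per kb of canonical transcript, HMGA1 was 31.8% in VEH, 67.8% with JQ1 and 50.6% with I-BET 762, where the libraries ranged from 48.2% to 52.1%. HMGA1 was the higher paralogue under both lengths in every JQ1 library.

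IGF2 (ENSG00000167244.22, chr11:2129112-2158391, − strand), a fetal growth factor acting through IGF1R, had few reads. It was at 46.5, 27.7 and 21.8 in VEH, from 48, 30 and 24 reads. It was at 22.0, 21.8, 13.0 and 18.3 with JQ1, and at 15.7, 20.1 and 4.92 with I-BET 762, the last from 5 reads. The I-BET 762 libraries were below all VEH libraries, and the JQ1 libraries overlapped VEH replicate 15. The log2 fold change was -0.70 (SE 0.40, limma adjusted p = 0.127) with JQ1 and -1.30 (SE 0.43, adjusted p = 0.0148) with I-BET 762, on the scale of log2(normalized count + 1), which understates changes of low genes. The call with I-BET 762 was lost without VEH replicate 13 (-1.0, adjusted p = 0.0801) and without I-BET 762 replicate 23 (-0.75, adjusted p = 0.0904). The value with JQ1 was -0.40 without VEH replicate 13 (adjusted p = 0.437), and without I-BET 762 replicate 23 it stayed at -0.70 and passed (adjusted p = 0.0486). Of its exonic bases, 37.9% are shared on the same strand with an unnamed protein-coding gene (ENSG00000284779) and 20.4% with INS-IGF2, neither analysed here.

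LIN28A (ENSG00000131914.11, chr1:26410817-26429728, + strand), which keeps let-7 from maturing in stem cells, had 4, 3 and 6 reads in VEH. It had 0, 1, 1 and 2 reads with JQ1 and 1, 5 and 5 reads with I-BET 762. With 0 reads seen, the upper limit is 3 reads, between 2.73 and 3.30 in normalized counts, for counting error only. All JQ1 libraries were within that limit, so no fold change is given.

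The order of the levels differed between groups. Per kb of annotated exon in VEH, it was IGF2BP3 (545 ± 13.0, SD, n = 3), IGF2BP2 (358 ± 9.22), HMGA1 (350 ± 32.9), HMGA2 (248 ± 11.0), IGF2BP1 (138 ± 9.95), IGF2 (4.48 ± 1.80) and LIN28A (1.02 ± 0.34). Of these neighbours, IGF2BP2 and HMGA1 overlapped between libraries and the others did not. With JQ1, HMGA1 came first (1181 ± 107, n = 4), before IGF2BP3 (475 ± 11.4) and IGF2BP2 (427 ± 34.2), and with I-BET 762 it also came first (659 ± 4.95, n = 3). With I-BET 762, the levels of IGF2 and LIN28A overlapped. Per kb of canonical transcript, HMGA2 (908 ± 40.3) was second in VEH and IGF2BP3 (925 ± 14.2) remained ahead of HMGA1 (798 ± 6.0) with I-BET 762.

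JQ1 and I-BET 762, the only pair of compounds, were compared at the same dose and time. HMGA1 was called, 1 of the 6 genes tested, against 5.31% of all symbols tested (1.73% higher and 3.59% lower with JQ1). Its level with JQ1 was 1.79-fold that with I-BET 762 (95% interval 1.60 to 1.99), a log2 difference of 0.84 (SE 0.07, limma adjusted p = 1.38e-06). HMGA2 was lower with JQ1 by a log2 difference of -0.20 (interval -0.32 to -0.09, adjusted p = 0.0136), under 1.5-fold. Without I-BET 762 replicate 23 the difference of HMGA2 was -0.14 and did not pass (adjusted p = 0.101). By adjusted p alone, over all libraries, these were 2 of the 6, against 27.3% of all symbols, and the libraries did not overlap for the same 2, against 33.8%. The difference did not pass for IGF2BP1 (-0.21, interval -0.40 to -0.02, adjusted p = 0.0968), IGF2BP2 (0.05, -0.07 to 0.18), IGF2BP3 (0.03, -0.06 to 0.12) or IGF2 (0.60, -0.25 to 1.45). Those intervals bound the difference to under 1.5-fold for the 3 IGF2BP genes and not for IGF2. The difference of IGF2 rested on single libraries, being 0.05 without I-BET 762 replicate 23 and 0.96 without I-BET 762 replicate 22.

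**Figure D4:**
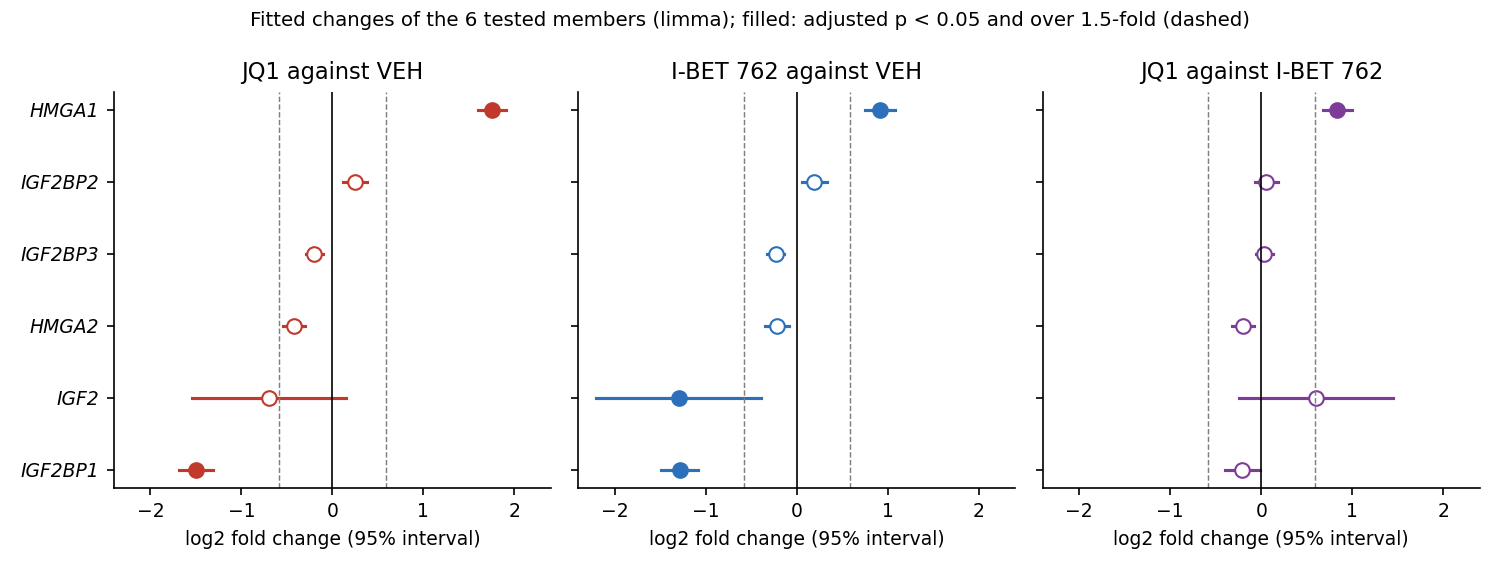
Log2 fold changes (x axis) with 95% intervals of the 6 tested genes for JQ1 and I-BET 762 against VEH and for JQ1 against I-BET 762; filled points passed limma's adjusted p of 0.05 and the 1.5-fold threshold (dashed). HMGA1 is at 1.75, 0.92 and 0.84 and IGF2BP1 at -1.50, -1.29 and -0.21, and the intervals of IGF2 are the widest.

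Genes that make, host or answer to let-7 were counted next, from lists drawn up with earlier results of these data known. The counts of every list below are to be read beside the shares of all symbols tested. By the same rule, 36.1% of all symbols were called with JQ1 (13.3% higher, 22.8% lower). With I-BET 762, 26.9% were called (8.96% higher, 17.9% lower). Of 14 genes of let-7 processing and decay, all tested, 1 was called with JQ1 and 2 with I-BET 762, each of them lower. AGO4, an Argonaute protein that binds microRNAs, fell with both, by 0.91 and 0.60 on the log2 scale. TRIM71, itself a let-7 target, fell by 0.80 with I-BET 762 (limma adjusted p = 0.0491) and had a value of -0.55 with JQ1 (adjusted p = 0.128). It had only 12 to 37 reads per library. The median of the list was 0.01 with each inhibitor, beside medians of 0.01 or nearer to 0 over all symbols. DICER1, which cuts the let-7 precursor, was at 5763 ± 59.8 in VEH, 5823 ± 173 with JQ1 and 5719 ± 260 with I-BET 762 (SD).

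Of 6 let-7 host genes, 5 were tested. MIR99AHG, whose introns hold let-7c, fell from 4076 ± 385 (SD, n = 3) in VEH to 722 ± 17.8 (n = 4) with JQ1 and 1483 ± 106 (n = 3) with I-BET 762. These are log2 fold changes of -2.49 (SE 0.07, limma adjusted p = 5.46e-14) and -1.46 (SE 0.07, adjusted p = 1.26e-10). MIRLET7A1HG, the host of the chromosome 9 cluster, went from 311 ± 13.9 to 537 ± 33.2 with I-BET 762, a rise of 0.78 on the log2 scale, and its change with JQ1, 0.50, was under the fold threshold. The 2 host genes thus moved in opposite directions, and the mature microRNAs were not measured.

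Of 16 let-7 targets other than the 9 genes, all tested, 2 rose and 5 fell with JQ1, beside 13.3% and 22.8% of all symbols tested. With I-BET 762, 1 rose and 6 fell, beside 8.96% and 17.9%. THBS1, a matrix glycoprotein, fell from 9101 ± 237 in VEH to 2080 ± 172 with JQ1 and 1709 ± 221 with I-BET 762 (SD). CCND2, a G1 cyclin, fell from 6737 ± 62.8 to 1841 ± 98.7 and 2539 ± 30.6. E2F2, a transcription factor of S phase entry, fell by 1.78 and 1.29 on the log2 scale, and CDK6, the kinase partner of CCND2, by 1.64 and 1.18. ARID3A also fell with both. TRIM71, with the few reads given above, was the other target that fell with I-BET 762. MYC rose with JQ1, and IGF1R rose with both. The median of the list was -0.30 with JQ1 and -0.11 with I-BET 762.

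Of 13 mRNAs known as clients of IGF2BP proteins, 12 were tested. With JQ1, 2 rose and 1 fell, beside 13.3% and 22.8% of all symbols tested. MYC went from 5176 ± 188 in VEH to 10372 ± 583 with JQ1 (1.0 on the log2 scale, SE 0.05, limma adjusted p = 1.28e-10) and to 7517 ± 410 with I-BET 762 (0.54, under the fold threshold). GLI1, a transcription factor of Hedgehog signalling, fell from 454 ± 51.1 to 30.8 ± 16.7 and 37.0 ± 7.39, with log2 fold changes of -3.99 and -3.59. GLI1 was the only client called with I-BET 762. ACTB, whose mRNA the family carries to the leading edge of migrating cells, rose by 0.75 on the log2 scale with JQ1. The median of the list was 0.24 with JQ1 and -0.01 with I-BET 762, and clients were called in both directions with JQ1. Of 11 other m6A readers, 10 were tested and 0 were called by limma with either inhibitor, 0 also by limma-voom, while 6 were under an unadjusted p of 0.05 with each. The same number passed by adjusted p alone with each inhibitor, 5 higher and 1 lower, all under 1.5-fold. The lower one was YTHDC2, at -0.40 (limma adjusted p = 2.58e-06) and -0.18 (adjusted p = 0.00964).

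Of 8 other HMG proteins, all tested, 2 rose and 2 fell with JQ1, beside 13.3% and 22.8% of all symbols tested. With I-BET 762, 1 rose and 2 fell, beside 8.96% and 17.9%. The 4 were all HMGN proteins, which bind nucleosomes. HMGN2 rose from 13425 ± 532 in VEH to 32167 ± 1764 with JQ1 and 26860 ± 734 with I-BET 762 (SD). HMGN1 rose by 0.79 on the log2 scale with JQ1. HMGN3 fell by 1.07 and 0.67, and HMGN5 by 1.4 and 1.3. The list's median was -0.01 with JQ1 and 0.02 with I-BET 762.

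**Figure D5:**
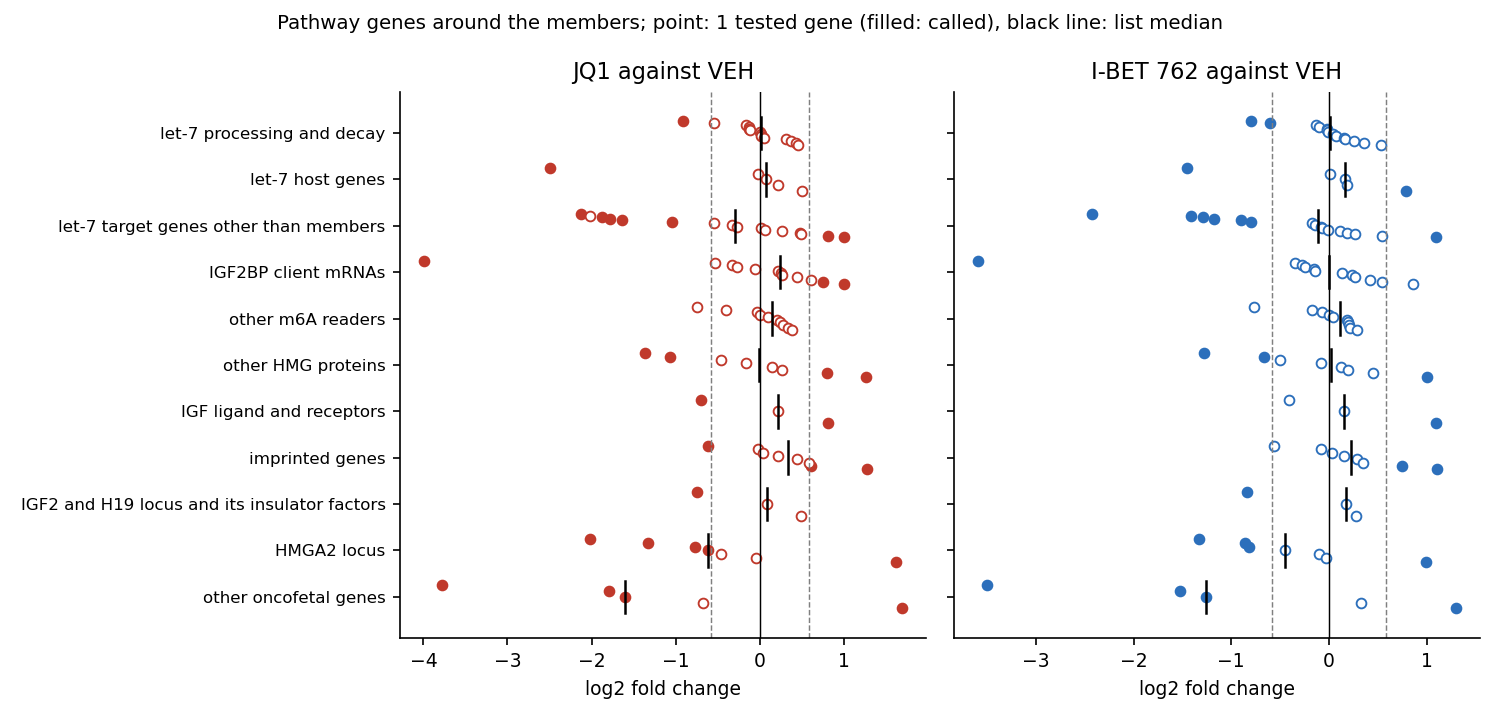
Log2 fold change (x axis) of each tested gene of 11 lists (rows) with JQ1 and with I-BET 762 against VEH; filled points were called, dashed lines mark 1.5-fold and black lines the list medians. GLI1 among the IGF2BP clients and PLAC1 among the oncofetal genes lie lowest, at -3.99 and -3.78 with JQ1. PLAC1 passed the filter through VEH alone and could appear only as a fall.

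Of the receptors that IGF2 can reach, IGF1R rose from 26.2 ± 5.15 in VEH to 46.5 ± 7.06 with JQ1 and 57.2 ± 12.0 with I-BET 762 (SD), and INSR fell by 0.70 on the log2 scale with JQ1. IGF2R, which clears IGF2, had values of 0.22 (limma adjusted p = 0.0253) and 0.16 (adjusted p = 0.126). IGF1 had at most 1 read in any library.

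Of 16 other imprinted genes, 8 were tested, and 2 rose and 1 fell with JQ1, beside 13.3% and 22.8% of all symbols tested. PLAGL1, a zinc finger factor of the imprinted network that includes IGF2 and H19, rose from 237 ± 39.9 in VEH to 568 ± 40.3 with JQ1 and 506 ± 20.6 with I-BET 762 (SD). PEG10 rose with JQ1, GRB10 fell with JQ1, and MEST rose with I-BET 762. Around IGF2, 3 of 14 listed genes were tested. MRPL23 fell by 0.75 and 0.84 on the log2 scale, with a wide spread in VEH (502 ± 179) and with I-BET 762 (286 ± 129). Its I-BET 762 libraries overlapped those of VEH. The insulator factor CTCF (0.08 and 0.17) and CD81 (0.49 and 0.28) were not called.

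Of 8 genes at the HMGA2 locus, 7 were tested. With JQ1, 1 rose and 4 fell, beside 13.3% and 22.8% of all symbols tested. RPSAP52, transcribed divergently from the strand opposite to HMGA2 (chr12:65758020-65826997), rose from 11.2 ± 3.94 in VEH to 35.2 ± 2.67 with JQ1 and 22.5 ± 2.31 with I-BET 762 (SD), on 9 to 36 reads. With a VEH median of 9.10, it passed the filter through the treated libraries, so it could be tested only as a rise. Its exons share no base with those of HMGA2. MSRB3, a methionine sulfoxide reductase and the nearest tested protein-coding gene below HMGA2, fell from 5623 ± 169 to 2242 ± 76.0 and 3099 ± 51.5. HELB and WIF1 fell with both inhibitors and GRIP1 with JQ1, and LLPH, the nearest tested gene above HMGA2 and not among the 8, rose by 0.63 on the log2 scale with JQ1.

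Beside HMGA1, SMIM29 lies 0.15 kb beyond its 3′ end and rose from 395 ± 8.85 in VEH to 824 ± 78.9 with JQ1 and 614 ± 68.7 with I-BET 762 (SD). LEMD2, on its other side, was not called. Beside IGF2BP1, SNF8 was not called, with values of 0.01 and 0.06, and PHOSPHO1 rose by 1.07 and 0.99 on the log2 scale from a mean of 24.7. Beside IGF2BP2, neither SENP2 nor TRA2B was called, and beside IGF2BP3, GPNMB fell, from 17 to 32 reads in VEH to at most 5 in any treated library, while TRA2A, on the other side, had values of 0.33 and 0.17, under the fold threshold. Beside LIN28A, CRYBG2 fell with JQ1, from 15 to 20 reads in VEH to at most 5, and had 3 to 8 reads with I-BET 762 (limma adjusted p = 0.0539), and DHDDS was not called. GPNMB and CRYBG2 passed the filter through VEH alone, so each could be tested only as a fall.

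Of 13 other oncofetal genes, 5 were tested, and with each inhibitor 1 rose and 3 fell. One of the 3, PLAC1, passed the filter through VEH alone, so it could be tested only as a fall. Among all symbols tested, 13.3% rose and 22.8% fell with JQ1, and 8.96% and 17.9% with I-BET 762. PLAC1, a placental and tumour gene, went from 58.7 ± 13.2 in VEH to 3.38 ± 1.18 with JQ1 and 4.30 ± 1.16 with I-BET 762 (SD). TPBG, the trophoblast glycoprotein, fell from 359 ± 21.8 to 103 ± 12.1 and 125 ± 15.3. SALL4, a stem cell factor, fell by 1.61 and 1.26 on the log2 scale, and PLAG1, an activator of IGF2, rose by 1.69 and 1.30. AFP, CEACAM5, NANOG and SOX2 were among the 6 with values that did not pass the filter.

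The genes most like each member were those with the highest Pearson r of log2 values over all 10 libraries, which share their treatments. For IGF2BP1 they were KCNH3, SPINT1 and TP63 (r 0.997, 0.996 and 0.996), among 1277 genes with r over 0.95. For HMGA1 they were SPRY4, RHBDD2 and CDKN1A (0.995, 0.994 and 0.994), among 548. CDKN1A, the p21 inhibitor of cell cycle kinases, rose by 2.45 with JQ1 and 1.22 with I-BET 762 on the log2 scale. For HMGA2 they were ANKRD36, KANTR and DST, for IGF2BP2 C2CD2L, ARHGAP17 and DDI2, for IGF2BP3 HDGFL3, ACOT13 and ZNF232, and for IGF2 PTK6, CPLANE1-AS1 and FBXO32 (0.909, 0.902 and 0.894). For IGF2, no gene was over 0.95.

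The labelled cell type was checked against markers. The 7 smooth muscle markers with values summed to 18349 to 19386 in VEH, 8186 to 8842 with JQ1 and 9624 to 10024 with I-BET 762. Most of the VEH sum came from CALD1 (mean 9439) and ACTA2 (7071). The others were far lower in VEH: TAGLN 1599, MYLK 405, DES 187, LMOD1 160 and CNN1 95.4. With JQ1 7 of 7 fell, and with I-BET 762 6 of 7. MYH11 was not analysed here. The 5 epithelial markers, in VEH mostly KRT19 (mean 741) and KRT18 (289), summed to 1212 to 1271 in VEH and 497 to 602 in treated libraries. Of them, 4 of 4 tested fell with JQ1 and 3 of 4 with I-BET 762. Among all symbols tested, 22.8% fell with JQ1 and 17.9% with I-BET 762. Endothelial, leukocyte and erythroid markers summed to at most 7.40, 3.04 and 2.0. The part of these shifts in the results above was not tested, and in bulk RNA fewer cells of a type and less RNA per cell cannot be told apart. Reads on genes ranged from 35564590 to 39658988 per library.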

How the data were processed

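Per the labels and the methods, the authors used Trimmomatic for trimming, HISAT2 2.2.1 for alignment to hg38, featureCounts 2.0.3 on Gencode V41 genes for counting and DESeq2 for normalization. They state that outlier samples were excluded, without naming them. VEH replicate 16 and I-BET 762 replicate 24 were not analysed here. The deposited table used here holds, for each symbol, the log2 of its normalized count with 1 added. Undoing the log2 gave whole multiples of 1 read, within 0.01, for 99.73% to 99.77% of values per library, and these gave the reads and depths. Symbols with a normalized count of at least 10 in at least 3 libraries were tested with limma 3.58.1 (R 4.3.3; log2 values, intensity trend, 1 model over 10 libraries, Benjamini-Hochberg) because the unit is log2; the script was tested on simulated data. The alternatives were another pseudocount (0.5 or 5), other filters, scalings and fold thresholds, no intensity trend, only the groups compared, limma-voom on recovered reads, each library left out, and the length dividing a level. Coordinates and exons are Gencode V44 on hg38; copies were found with minimap2 2.31. The members and lists were chosen with earlier results of these data known. Named from each list were at most the 4 genes with the largest change with JQ1 among those called with either inhibitor, plus any that a count of 5 or fewer refers to, and for each member the 3 most correlated genes and the nearest tested gene on each side. A few further genes were named after their values were seen (DICER1, IGF2R, CTCF, CD81 and those under the filter).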

Additional observations from a re-analysis of the deposited data

Results flagged for a closer look

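HMGA1 stood out because its response differed between the inhibitors: its level with JQ1 exceeded that with I-BET 762 by 0.84 on the log2 scale (limma adjusted p = 1.38e-06), higher in 4 of 4 JQ1 libraries. Among the JQ1 libraries, the only group large enough to check, none was extreme for any of the 6 tested genes, although JQ1 replicate 18 stood apart over all genes; the VEH and I-BET 762 groups, of 3 libraries each, were not checked.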

How the results depend on the processing

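Calls of IGF2BP1 and HMGA1 against VEH, and of HMGA1 between the inhibitors, held their direction and their side of the threshold under all 19 alternatives tried per value, in which the fold threshold stayed at 1.5. Over them, log2 fold changes ranged from -1.68 to -1.43 (JQ1) and from -1.39 to -1.24 (I-BET 762) for IGF2BP1, and from 1.57 to 1.82 and 0.82 to 0.98 for HMGA1. Without a fold threshold, 5 of the tested genes were called with JQ1, 6 with I-BET 762 and 2 between the inhibitors, and at a fold over 2 the counts were 2, 2 and 0, HMGA1 being lost with I-BET 762 and between the inhibitors. Without the filter, LIN28A was added to the calls with JQ1, on 0 to 2 reads, and without I-BET 762 replicate 23 IGF2 was added, giving 3. With equal totals, HMGA2 was called with JQ1, and the differences between the inhibitors turned to -0.034 for IGF2BP2 and -0.054 for IGF2BP3, neither past the test; that rescaling moved the median of all symbols between the inhibitors by -0.088. Among the tested genes, the call of IGF2 with I-BET 762 depended on single libraries, as did passing by adjusted p alone for IGF2BP2 with I-BET 762 and for HMGA2 between the inhibitors. IGF2BP1 passed by adjusted p between the inhibitors with equal totals alone (-0.30, adjusted p = 0.0419). Over all symbols, 5358, 3991 and 788 were called with JQ1, with I-BET 762 and between them. A mean of at least 100 gave 3359, 2338 and 418, with fewer genes tested, no fold threshold 10633, 9073 and 4047, and a fold over 2 gave 2958, 2108 and 206. No paired analysis was possible because no replicate number occurs in more than 1 group. Depth limits LIN28A and IGF2, on 0 to 48 reads.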
